A study of Mus musculus with 4 samples.

Results

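The interferon-stimulated and RNA-sensing genes are 39 genes, taken by gene name from a table of 55228 genes: interferon receptors, transcription factors, nucleic acid sensors, and the effectors that interferon induces. Total RNA was counted in cells of the rib cartilage of C57BL/6 mice at embryonic stage E17.5. Of the 4 libraries, 2 came from WT embryos and 2 from embryos with the genotype Trim28 KO. The labels give neither the knockout allele nor any Cre driver, nor do they state that the 2 libraries of each genotype are different animals. The p-values therefore cover only the variation among these 4 libraries, which may be technical.

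TRIM28 is a corepressor that KRAB zinc finger proteins bring to DNA to form heterochromatin. In the interferon system, cytosolic helicases such as RIG-I and MDA5 and the endosomal receptor TLR3 detect viral or other double-stranded RNA and, through adaptors such as MAVS, activate IRF3 and IRF7. These factors induce type I interferons, which bind the receptor IFNAR1-IFNAR2. The receptor activates a complex that includes STAT2 and IRF9 and binds interferon-stimulated response elements (ISREs) in the promoters of a large set of target genes, many of which block viral replication. Many cell types keep a low basal level of these transcripts.

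The libraries held 18616896 to 20082123 counts. Trim28 stood at 225 and 186 CPM (read counts scaled to library size) in WT 1 and WT 2, and at 51.1 and 54.5 CPM in Trim28 KO 1 and Trim28 KO 2. It fell by 1.96 ± 0.20 on the log2 scale (SE, n = 2 per genotype), in the direction of the labels. All 10 chondrocyte markers examined, Sox9, Col2a1 and Acan among them, had reads in every library, and together they took 83662 to 114814 CPM. Both libraries of each genotype differed by more than sampling noise and were counted as separate samples.

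Some of the members held a promoter feature that their choice by name did not use. The core of the response element was searched as GAAA, any 2 bases, GAAA on both strands, in windows of 250 bases before to 50 after each RefSeq transcription start. Of the 39 members, 30 had a window, and 14 of these (46.7%) held at least 1 match, against 1079 of 27025 genes (3.99%) in the whole table. Matches can overlap. The members are known interferon targets, so this is a description of them and not of the knockout. Of the 8 members with a window that were higher in Trim28 KO, as given further on, 4 held a match, and of the other 22 members 10 did. A STAT dimer site (TTC, any 3 bases, GAA) lay in the windows of 9 of 30 members, and in those of 9.55% of all genes.

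To show the element, the matched promoter stretches are given for 3 genes that rose in Trim28 KO (Isg15, Bst2 and Stat2). They are also given for 5 genes with large differences between libraries of one genotype or with a near copy (the Ifit and Oas1 genes). Each is given 5′ to 3′ on the strand of its gene, upstream of the RefSeq start, from GRCm38.p6. Capitals mark the matched cores, which read as TTTC, 2 bases, TTTC where they lie on the opposite strand.
Isg15 (chr4:156200855-156200916, minus strand): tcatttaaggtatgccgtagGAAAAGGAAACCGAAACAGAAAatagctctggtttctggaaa
Bst2 (chr8:71537567-71537622, minus strand): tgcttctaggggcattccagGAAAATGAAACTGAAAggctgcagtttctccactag
Stat2 (chr10:128270256-128270305, plus strand): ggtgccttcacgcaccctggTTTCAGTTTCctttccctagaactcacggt
Ifit1 (chr19:34640765-34640833, plus strand): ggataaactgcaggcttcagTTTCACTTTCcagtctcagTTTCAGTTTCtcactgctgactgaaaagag
Ifit3 (chr19:34583353-34583436, plus strand): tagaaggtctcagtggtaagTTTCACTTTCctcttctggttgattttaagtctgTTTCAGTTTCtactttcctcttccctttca
Ifit3b (chr19:34607749-34607832, plus strand): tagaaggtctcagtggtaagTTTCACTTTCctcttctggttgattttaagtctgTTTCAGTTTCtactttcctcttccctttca
Oas1a (chr5:120907526-120907565, minus strand): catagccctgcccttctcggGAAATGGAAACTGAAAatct
Oas1g (chr5:120887614-120887651, minus strand): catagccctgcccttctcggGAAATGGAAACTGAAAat

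Isg15 carried 3 overlapping cores between bases -78 and -57 from its start. Bst2, Oas1a and Oas1g each carried 2 overlapping cores. Ifit1, Ifit3 and Ifit3b carried 2 separate ones, and the 84 bases printed for Ifit3 and Ifit3b did not differ at any position, nor did the 38 bases shared by the printed Oas1a and Oas1g stretches. Ddx58, Ifih1 and Eif2ak2 had their match just after the start, and Oas3, Rsad2 and Trim30a had 1 each before it.

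**Figure D1:**
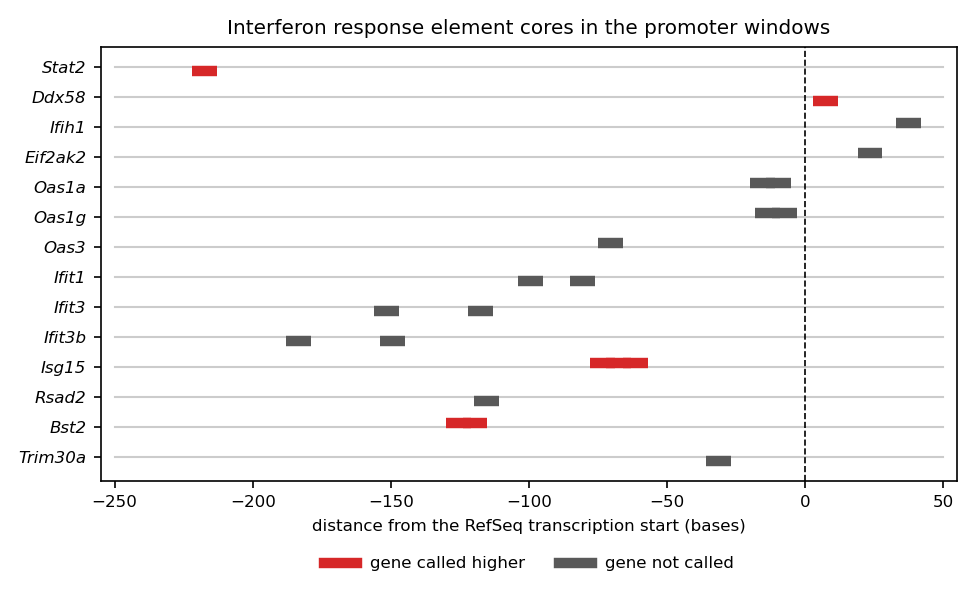
Response element cores (thick bars) in the promoter windows of the 14 members that held one, by distance in bases from the RefSeq start (dashed line, 0). Red marks genes higher in Trim28 KO and grey genes that were not called, a bar above its line lies on the strand of the gene and one below it on the opposite strand. Isg15 has 3 overlapping cores, and the cores of Ddx58, Ifih1 and Eif2ak2 lie after the start. A second window of Trim30a is left out.

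All 39 members had reads and passed the filter on low counts. Of these, 9 rose in Trim28 KO and none fell (edgeR's quasi-likelihood test, adjusted p under 0.05 over all genes tested). Over all 16639 genes tested, 8.64% were called higher and 8.77% lower, and the 9 members are 23.1% of the members. Fitted log2 fold changes lay above 0 in 34 of 39 members (median 0.74), against 8008 of 16639 genes tested (median -0.02). In 21 members both Trim28 KO libraries stood above both WT libraries (53.8%, against 28.3% of all genes tested), and in 2, Irf1 and Irf3, both stood below (against 29.7%). At an unadjusted p under 0.05 there were 21 members and 5013 of all genes tested. The rises were modest: the fitted folds of the 9 lay between 1.55 (Adar) and 2.56 (Usp18).

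Per kilobase of exon, the members spanned more than 2 orders of magnitude. Averaged over the 4 libraries, Ifi27 was highest at 82.6 CPM per kilobase, followed by Bst2 at 53.7, Irf3 at 13.2, Isg15 at 10.1 and Ifnar1 at 9.81. The lowest were Mx1 at 0.222 and Oas3 at 0.169. For comparison, Trim28 averaged 31.1 CPM per kilobase.

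**Figure D2:**
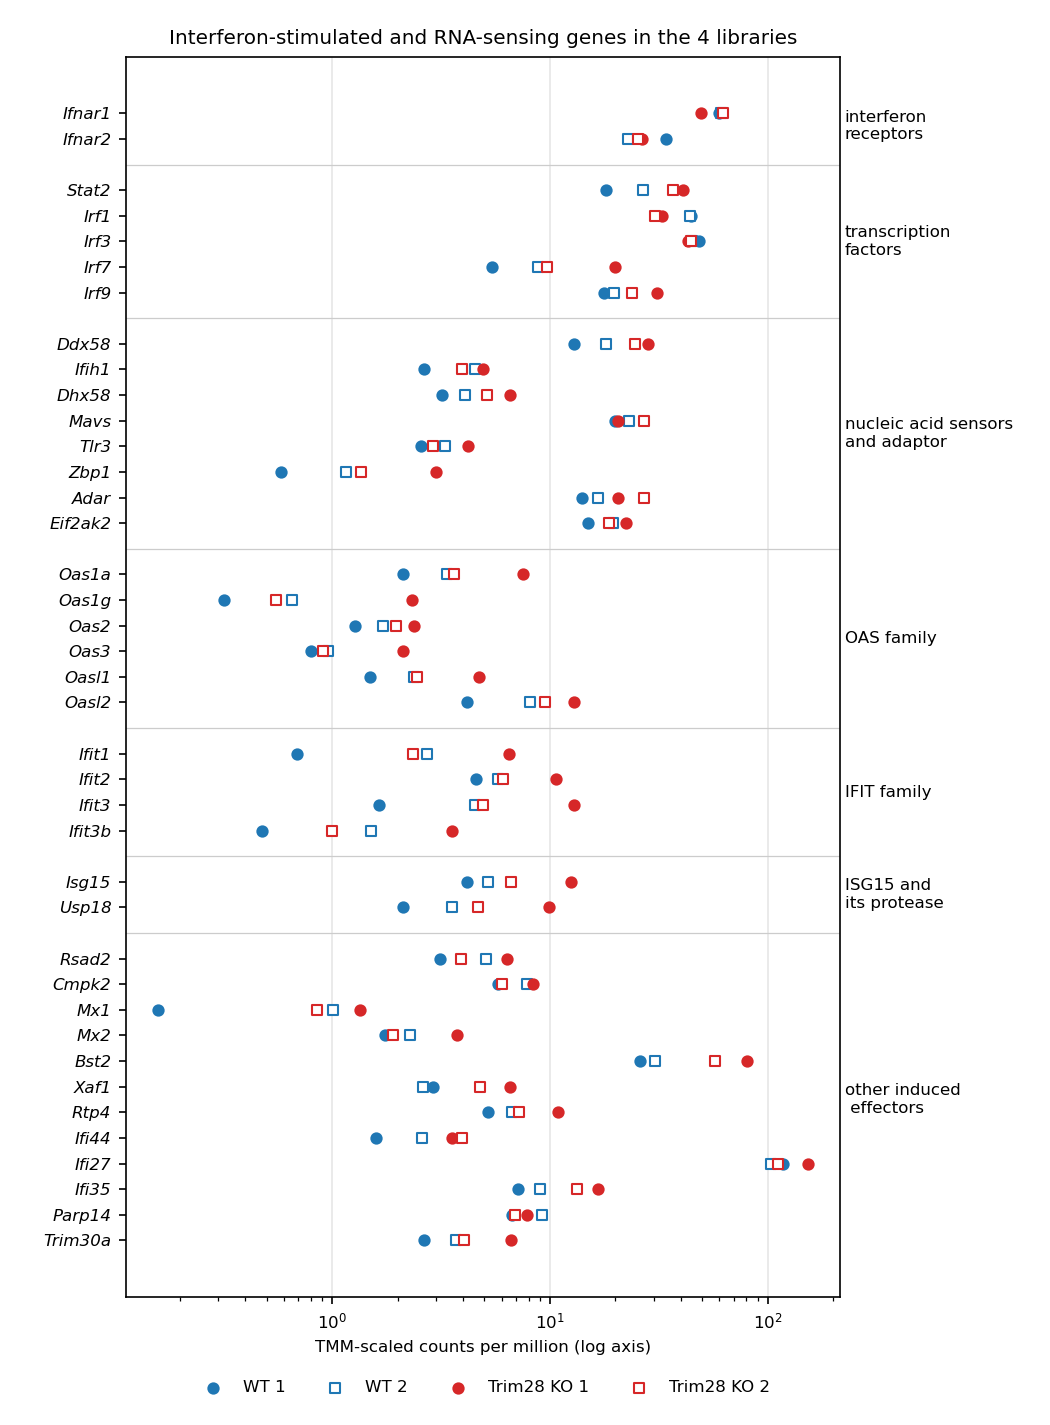
Level of each of the 39 members in the 4 libraries, in TMM-scaled CPM on a log axis, 1 row per gene and grouped by role. Blue marks WT and red Trim28 KO. Circles stand for the first library of a genotype and squares for the second. For the Oas and Ifit genes the order is mostly WT 1 lowest, then WT 2 and Trim28 KO 2 close together, then Trim28 KO 1 highest.

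The receptor genes did not pass the test. Ifnar1, which encodes the chain that binds TYK2, stood at 59.9 and 61.0 CPM in WT and at 49.7 and 62.6 CPM in Trim28 KO. Ifnar2, the chain that binds interferon most tightly, stood at 34.2 and 22.8 CPM in WT and at 26.4 and 25.3 CPM in Trim28 KO. The genotypes overlapped in both genes, with log2 fold changes of -0.11 ± 0.19 and -0.14 ± 0.21.

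Among the transcription factors, Stat2, a signal transducer that the receptor activates, rose. It stood at 18.1 and 26.8 CPM in WT and at 40.9 and 36.9 CPM in Trim28 KO. Both Trim28 KO libraries were above both WT libraries, with a log2 fold change of 0.79 ± 0.20 and an adjusted p of 0.00827. Its partner Irf9, a DNA-binding subunit of the complex, stood at 17.7 and 19.8 CPM in WT and at 31.2 and 23.9 CPM in Trim28 KO. The libraries did not overlap, but Irf9 was not called (0.55 ± 0.20, adjusted p = 0.0574). Irf7, the inducible master factor of interferon production, stood at 5.42 and 8.79 CPM in WT and at 19.9 and 9.68 CPM in Trim28 KO. Only Trim28 KO 1 was far above WT, and Irf7 was not called (1.06 ± 0.38, adjusted p = 0.112), although DESeq2 called it (adjusted p = 0.0277). Irf1, which also answers interferon gamma and inflammatory signals, went the other way. It stood at 44.7 and 44.1 CPM in WT and at 32.6 and 30.3 CPM in Trim28 KO. These values did not overlap, yet the difference was not called (-0.50 ± 0.18, adjusted p = 0.0632). Irf3, the constitutive factor downstream of the sensors, varied least of the 5, from 43.3 to 48.3 CPM over the 4 libraries (-0.09 ± 0.18).

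Of the 8 sensors and their adaptor, 2 rose (25%, against 8.64% of all genes tested) and 6 were not called. All 8 had a log2 fold change above 0, against 8008 of 16639 genes tested. With so few genes these shares are not read as a result about the group. Ddx58, which encodes the RNA helicase RIG-I, stood at 12.9 and 18.0 CPM in WT and at 28.2 and 24.5 CPM in Trim28 KO. It rose 1.71-fold (0.77 ± 0.21, adjusted p = 0.0110), with no overlap between genotypes. Adar, which encodes the editor that turns adenosine to inosine in double-stranded RNA, stood at 14.1 and 16.7 CPM in WT and at 20.5 and 27.1 CPM in Trim28 KO. It rose 1.55-fold (0.63 ± 0.21, adjusted p = 0.0350) and, unlike most members, was higher in Trim28 KO 2 than in Trim28 KO 1. In the annotation 16.8% of the exon bases of Adar overlap Chrnb2 on the opposite strand, where reads were not assigned. The Adar call was not made by DESeq2 (adjusted p = 0.0704) or limma-voom (adjusted p = 0.0584).

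The other 6 genes of this group were not called. Zbp1, a sensor of left-handed nucleic acid, had 11 and 23 reads in WT and 58 and 27 in Trim28 KO. Its log2 fold change of 1.30 ± 0.47 rested mostly on Trim28 KO 1 and was not called (adjusted p = 0.0624). Dhx58, which encodes LGP2, a regulator of RIG-I and MDA5, ranged from 3.19 to 4.09 CPM in WT and from 5.12 to 6.59 CPM in Trim28 KO (0.68 ± 0.28, adjusted p = 0.103). Ifih1, which encodes MDA5 (0.30 ± 0.31), Tlr3 (0.29 ± 0.32), Eif2ak2, which encodes the kinase PKR (0.25 ± 0.20), and Mavs (0.14 ± 0.20) had overlapping genotypes. Per kilobase of exon, Mavs had the highest mean level of these 4 (6.79 CPM per kilobase) and Ifih1 the lowest (0.493).

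The OAS proteins make or resemble enzymes that make the 2-5A signal, which activates RNase L. Oas2, Oas3, Oas1g and Oas1a lie on chromosome 5 from 120730333 to 120907521, and Oasl2 and Oasl1 lie on the same chromosome from 114896936 to 114937915. All 6 were higher in WT 2 than in WT 1 and higher in Trim28 KO 1 than in Trim28 KO 2. Oasl2 stood at 4.14 and 8.08 CPM in WT and at 13.0 and 9.53 CPM in Trim28 KO, and it rose (0.88 ± 0.29, adjusted p = 0.0481). That value lies close to the threshold, and the call was absent with DESeq2 (adjusted p = 0.0735). The other 5 were not called. Oas1a stood at 2.12 and 3.38 CPM in WT and at 7.52 and 3.61 CPM in Trim28 KO (1.01 ± 0.36, adjusted p = 0.0625). Trim28 KO 2 therefore lay barely above WT 2. Oas1g had 6 and 13 reads in WT and 45 and 11 in Trim28 KO, with overlapping genotypes. Of the 50-base stretches in the transcripts of Oas1a, 57.6% also occur in another locus, and of those in Oas1g 45.7%, chiefly in each other and in Oas1b. Reads from such stretches have several matching places, so both levels are uncertain. Oas2, Oas3 and Oasl1 had 15 to 92 reads per library and log2 fold changes of 0.53, 0.77 and 0.89.

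No gene of the IFIT family, whose proteins bind viral RNA, was called by edgeR's quasi-likelihood test, although Ifit1, Ifit3 and Ifit3b had fitted differences of more than 1 on the log2 scale. Ifit2, Ifit3, Ifit3b and Ifit1 lie on chromosome 19 from 34550694 to 34650009. Ifit1 had 13 and 54 reads in WT and 126 and 47 in Trim28 KO. Ifit3 had 31 and 90 reads in WT and 250 and 98 in Trim28 KO. In both genes WT 2 and Trim28 KO 2 were close together, and the difference between genotypes came from WT 1 at the low end and Trim28 KO 1 at the high end. The log2 fold changes were 1.36 ± 0.84 for Ifit1 and 1.51 ± 0.78 for Ifit3 (adjusted p = 0.386 and 0.324). Limma-voom called Ifit3 (adjusted p = 0.0498). When no low-count filter was applied, edgeR called all 4 genes of the family. Ifit3b, a near copy of Ifit3, had 9 and 30 reads in WT and 69 and 20 in Trim28 KO (1.18 ± 0.71). Of the 50-base stretches of Ifit3, 51.2% also occur in another locus, and of those of Ifit3b 45.0%, so the split of reads between them is uncertain. Ifit2 was steadier, at 4.57 and 5.76 CPM in WT and at 10.7 and 6.12 CPM in Trim28 KO (0.70 ± 0.28, adjusted p = 0.0863).

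Both genes of the ISG15 system rose. ISG15 is a ubiquitin-like protein that is attached to other proteins, and USP18 is the protease that removes it and also damps signalling at IFNAR2. Isg15 stood at 4.14 and 5.20 CPM in WT and at 12.5 and 6.62 CPM in Trim28 KO. It rose 2.04-fold (1.03 ± 0.29, adjusted p = 0.0184), a call that limma-voom did not make (adjusted p = 0.0534). Usp18 stood at 2.12 and 3.54 CPM in WT and at 9.89 and 4.67 CPM in Trim28 KO. It rose 2.56-fold (1.36 ± 0.37, adjusted p = 0.0222), the largest fitted fold among the called members. In both genes the genotypes did not overlap, and Trim28 KO 1 stood at 1.88 and 2.12 times the level of Trim28 KO 2.

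Among the other induced effectors, 3 of 12 rose (25%, against 8.64% of all genes tested). Bst2, which encodes tetherin, the membrane protein that holds budding virions on the cell, had the smallest p-value of all members. It stood at 25.8 and 30.5 CPM in WT and at 80.2 and 57.4 CPM in Trim28 KO. Its lowest Trim28 KO value was 1.88 times its highest WT value, the widest such gap of the 39, and it rose 2.44-fold (1.29 ± 0.20, adjusted p = 6.55e-05). Bst2 lies on chromosome 8 from 71534255 to 71537456 on the minus strand. Xaf1, which encodes a proapoptotic partner of XIAP, stood at 2.92 and 2.63 CPM in WT and at 6.59 and 4.77 CPM in Trim28 KO (1.03 ± 0.30, adjusted p = 0.0177). Ifi35 stood at 7.17 and 8.99 CPM in WT and at 16.7 and 13.3 CPM in Trim28 KO (0.89 ± 0.22, adjusted p = 0.00632). In the annotation 16.8% of the exon bases of Ifi35 overlap the opposite-strand gene Gm11626.

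The remaining 9 effectors were not called. Ifi44 (0.85 ± 0.34), Trim30a (0.74 ± 0.31) and Rtp4 (0.60 ± 0.26) had no overlap between genotypes, with adjusted p-values of 0.0915, 0.107 and 0.110. Ifi27, the most abundant member, stood at 117 and 103 CPM in WT and at 153 and 111 CPM in Trim28 KO (0.26 ± 0.20). Rsad2, which encodes viperin, an enzyme that makes a chain-terminating nucleotide, and its divergent neighbour Cmpk2 on chromosome 12 overlapped between genotypes (0.32 ± 0.31 and 0.08 ± 0.26). Parp14 was the only effector with a value below 0 (-0.10 ± 0.24). Mx1 had 3, 20, 26 and 17 reads and Mx2 33, 45, 73 and 38 in WT 1, WT 2, Trim28 KO 1 and Trim28 KO 2. RefSeq lists both Mx genes as transcribed pseudogenes in the mouse reference genome.

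**Figure D3:**
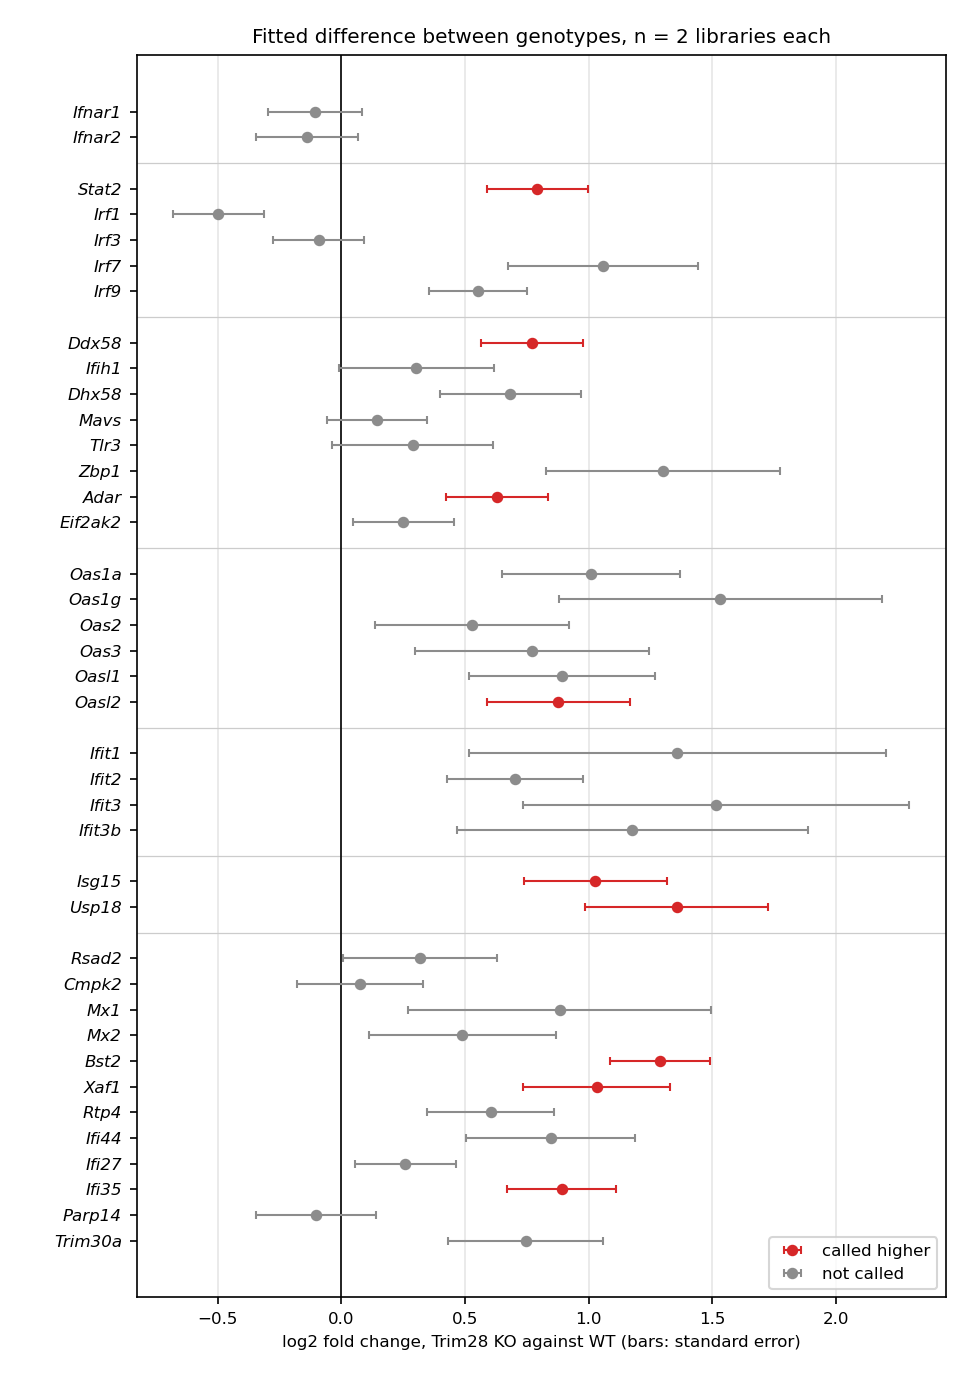
Log2 fold change of each member, Trim28 KO against WT, with its standard error (bars, n = 2 libraries per genotype). The 9 genes in red were called higher at an adjusted p under 0.05. The wide bars of Ifit1, Ifit3, Ifit3b, Oas1g and Mx1 go with large differences between libraries of one genotype.

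The members moved together between libraries of the same genotype as well. Skeletal muscle markers did too, as given further on. In WT, 34 of 39 members were higher in WT 2 than in WT 1, with a median ratio of 1.35, where 50.1% of all genes tested were higher. In Trim28 KO, 34 of 39 were higher in Trim28 KO 1 than in Trim28 KO 2, with a median ratio of 1.39, against 46.8% of all genes tested (median ratio 0.982). The order Trim28 KO 1, Trim28 KO 2, WT 2, WT 1 from high to low held in 18 members (46.2%) and in 6.81% of all genes tested. Ifit1 was 3.95 times and Ifit3 2.76 times higher in WT 2 than in WT 1, and Oas1g was 4.20 times higher in Trim28 KO 1 than in Trim28 KO 2. Compared library by library, the members of Trim28 KO 1 had a median of 1.61 times their level in WT 2, and those of Trim28 KO 2 a median of 1.08 times, with 25 of 39 higher. Neighbouring libraries in this order, WT 2 and Trim28 KO 2, therefore differed little for most members, whereas Bst2, Xaf1, Ifi35, Ifi44, Stat2, Ddx58 and Usp18 kept the lowest Trim28 KO value at least 1.32 times the highest WT value.

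**Figure D4:**
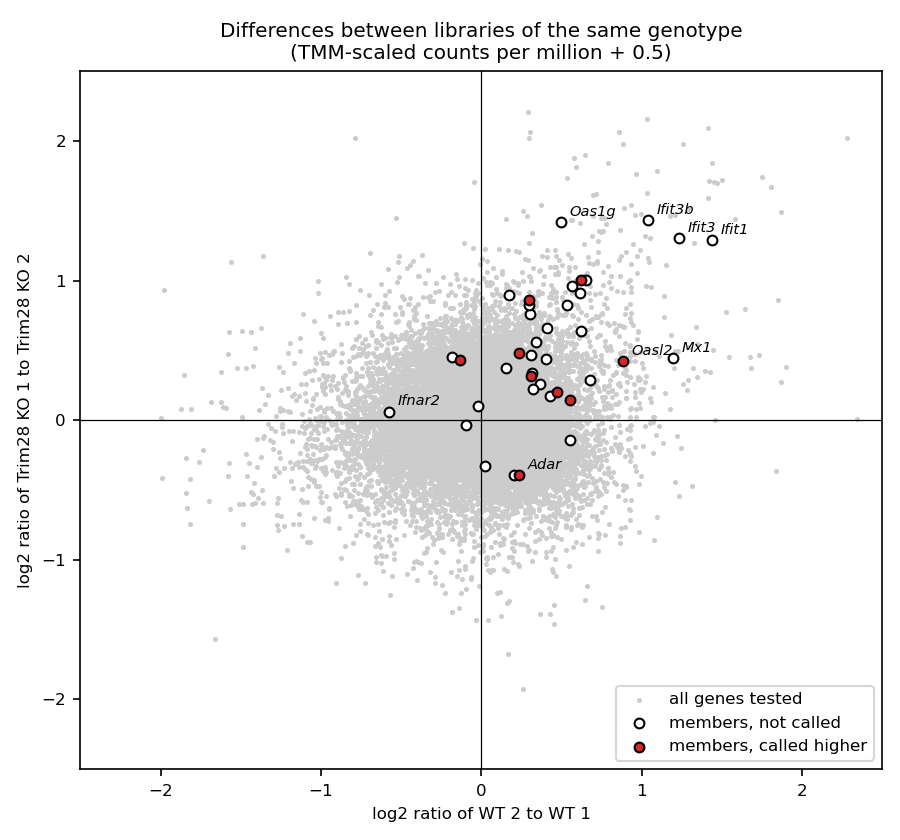
Log2 ratio of WT 2 to WT 1 (x axis) and of Trim28 KO 1 to Trim28 KO 2 (y axis), from TMM-scaled CPM plus 0.5. Grey points are all genes tested, open circles members not called and red circles members called higher. Most members lie in the upper right part, led by Ifit1, Ifit3 and Ifit3b. Of all genes tested, 9 fall outside the axes, none of them a member.

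The number of calls depended on which libraries were used. Without Trim28 KO 1, 2 members were called higher, Bst2 and Adar, and the median log2 fold change of the members was 0.35, while 4.02% of all genes tested were called higher. Without WT 2, 20 members were called, with a median of 0.94 and 7.48% of all genes tested called higher. Without WT 1 there were 7 calls, with 8.27% of all genes tested called higher, and without Trim28 KO 2 there were 12, with 5.17%. Bst2 was called without any 1 of the 4 libraries, with log2 fold changes of 1.04 to 1.52. Isg15 (0.51, adjusted p = 0.399), Usp18 (0.73, adjusted p = 0.316) and Ifi35 (0.73, adjusted p = 0.125) lost their calls only without Trim28 KO 1. Stat2 and Ddx58 lost theirs without WT 1 or Trim28 KO 1, Adar without WT 1 or Trim28 KO 2, Xaf1 without WT 2 or Trim28 KO 1, and Oasl2 without WT 1, Trim28 KO 1 or Trim28 KO 2. The log2 fold changes of the members were above 0 in 32 to 35 of 39 under these omissions.

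**Figure D5:**
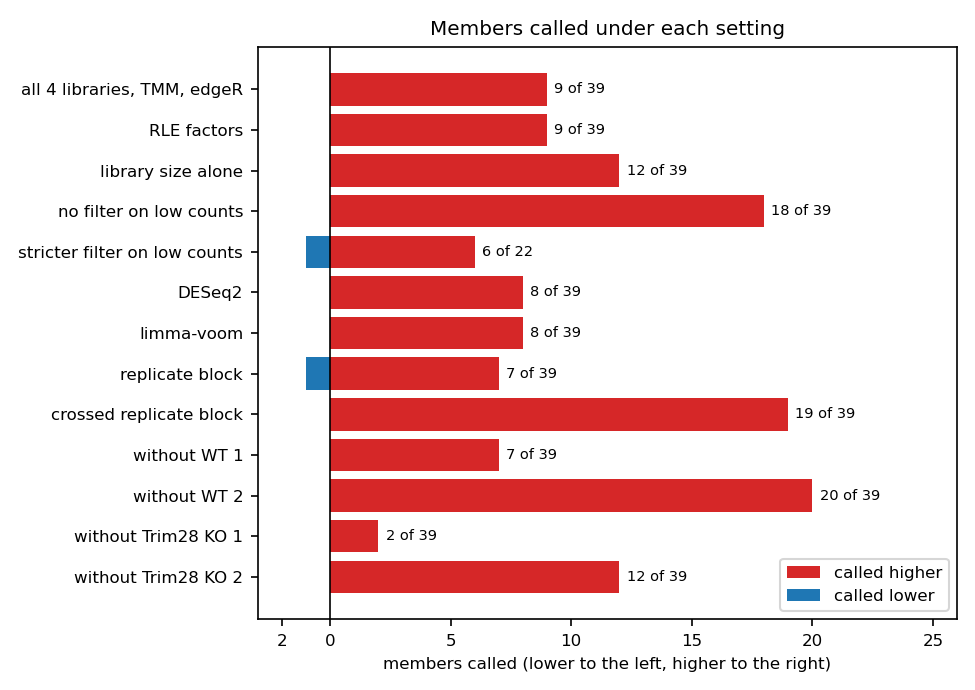
Number of members called higher (red, to the right) and lower (blue, to the left) under each processing setting, with the number tested printed beside each bar. The count runs from 2 without Trim28 KO 1 to 20 without WT 2, and the 1 gene called lower, with a stricter filter and with a replicate block, is Irf1.

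Other parts of the interferon system were read from lists outside the 39 members. Of 21 interferon ligand genes, type I, II and III, 18 had no read in any library. For Ifnb1, one of these, a count of 0 allows at most 0.151 to 0.159 CPM per library. Reads that match several of the near-identical Ifna genes were not counted, so no such limit is given for them. Ifna4 and Ifnab had 1 read each, both in Trim28 KO 1, and Ifnz had 2, 6, 3 and 2 reads in WT 1, WT 2, Trim28 KO 1 and Trim28 KO 2.

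Among 13 tested genes for other receptors, kinases and feedback inhibitors, 2 fell (15.4%) and none rose. The shares over all genes tested were 8.77% lower and 8.64% higher. Socs3, a feedback inhibitor of cytokine receptors that acts chiefly on the gp130 family, stood at 424 and 253 CPM in WT and at 76.3 and 85.3 CPM in Trim28 KO (-2.07 ± 0.24). The kinase gene Jak2 fell (-0.55 ± 0.19, adjusted p = 0.0478), a call that was lost with relative log expression factors (adjusted p = 0.0508), with DESeq2 (adjusted p = 0.0524) and without any 1 library. Ifngr2 (0.50 ± 0.19), Jak1 (-0.01 ± 0.20), Ptpn1 (-0.16 ± 0.18) and Ptpn2 (0.17 ± 0.19) were not called. None of 7 tested genes for other interferon regulatory factors and their binding partners was called by edgeR. An unadjusted p under 0.05 was reached by 3 of them, Irf2 (log2 fold change 0.48), Irf2bpl (-0.96) and Irf8 (0.57), the last named after its values were seen. The log2 fold changes of Irf2bp1 and Irf2bp2 were -0.17 and -0.10. DESeq2 called Irf2bpl (adjusted p = 0.00734).

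Of 20 tested genes of DNA sensing, endosomal sensing and RNA turnover, 2 rose (10%) and 1 fell (5%). These shares lay near or below those of all genes tested, 8.64% higher and 8.77% lower. Log2 fold changes lay above 0 in 15 of the 20, against 8008 of 16639 genes tested. Both Trim28 KO libraries stood above both WT libraries in 9 (45%, against 28.3% of all genes tested) and below in 3 (against 29.7%). At an unadjusted p under 0.05 there were 7 of the 20, against 5013 of all genes tested. Ticam1, which encodes TRIF, the adaptor of TLR3, stood at 13.0 and 10.1 CPM in WT and at 22.6 and 26.8 CPM in Trim28 KO (1.10 ± 0.21, adjusted p = 5.03e-04). Adarb1, which encodes the second RNA-editing adenosine deaminase, rose from 19.0 and 17.9 CPM to 32.7 and 34.2 CPM (0.86 ± 0.19). Both genes were lower in WT 2 than in WT 1 and lower in Trim28 KO 1 than in Trim28 KO 2, the reverse of most members. Ikbke, a kinase that activates IRF3, fell (-0.64 ± 0.20, adjusted p = 0.0285, and 0.0645 with DESeq2), a call also lost without WT 2, Trim28 KO 1 or Trim28 KO 2. Traf3 (0.27), Skiv2l (0.21), Samhd1 (-0.10) and Rnaseh2c (-0.19) were not called.

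A further list of 81 interferon-stimulated genes, of which 74 were tested, gave 17 rises (23%, against 8.64% of all genes tested) and 1 fall. Like the members, this list was chosen with earlier results of these data known, so its share is no independent support for theirs. The median log2 fold change was 0.57, with 63 of 74 above 0. This list too was higher in WT 2 than in WT 1 (65 of 74). It was also higher in Trim28 KO 1 than in Trim28 KO 2 (66 of 74). Among the genes that rose were the peptide transporter genes Tap1 (0.99) and Tap2 (0.99), the immunoproteasome genes Psmb8 (0.92) and Psmb9 (1.39), B2m (0.74) and the lysosomal reductase gene Ifi30 (1.09). Of these 6, Tap2 and Ifi30 were also called without Trim28 KO 1. Ube2l6, the conjugating enzyme for ISG15 (0.74 ± 0.22), and the exonuclease gene Isg20 (1.17 ± 0.22) also rose. So did Ifi27l2a (2.03 ± 0.32), Tor3a (1.30 ± 0.19), Lgals9 (1.03), Lgals3bp (0.75), Sp100 (1.08), Slfn2 (0.96), Ifi211 (1.15) and the sister genes Apol9a (1.89) and Apol9b (2.09), which resemble each other and had 1 to 25 reads per library. Ifitm2, which encodes a membrane protein that blocks virus entry, fell (-0.66 ± 0.20), a call lost without WT 2 (adjusted p = 0.148), Trim28 KO 1 (adjusted p = 0.0805) or Trim28 KO 2 (adjusted p = 0.200). Ifitm3 (0.36), Psme1 (0.30), Helz2 (-0.03) and Pml (-0.09) were not called. The count of rises in this list was 7 without Trim28 KO 1, 23 without WT 2, 15 without Trim28 KO 2, 11 without WT 1 and 11 with DESeq2.

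Markers of other cells differed between the same libraries, and in bulk RNA more cells of a type cannot be told apart from more RNA per cell. Of 18 macrophage markers, 11 rose (61.1%, against 8.64% of all genes tested) and none fell. Their summed level was 214 and 222 CPM in WT, 575 CPM in Trim28 KO 1 and 360 CPM in Trim28 KO 2, so Trim28 KO 1 was highest here too, while WT 1 and WT 2 were nearly level. C1qa, a complement gene of tissue macrophages, rose from 304 and 279 reads to 1713 and 1001 reads. C1qb (2.02) and C1qc (1.93) also rose. Mertk, of similar mean level, was lower in Trim28 KO but not called (-0.35 ± 0.19). It stood at 46.8 and 50.2 CPM in WT and at 33.8 and 42.2 CPM in Trim28 KO. Of the 18 macrophage markers, 15 had a log2 fold change above 0 and 3, Mertk among them, below 0. Of 7 genes of all leukocytes, 4 rose (57.1%), with sums of 78.9 and 79.0 CPM in WT and of 131 and 86.6 CPM in Trim28 KO. Ptprc, which encodes CD45 and is named after its values were seen, was not called (0.47, adjusted p = 0.303). Markers of plasmacytoid dendritic cells, several of which other cells also express, summed to 274 and 306 CPM in WT and to 181 and 221 CPM in Trim28 KO. Most of each sum was Tcf4 and Runx2, so the sums say little about that cell type. Tcf4 stood at 179 and 205 CPM in WT and at 130 and 165 CPM in Trim28 KO and was not called. Runx2 stood at 86.6 and 93.4 CPM in WT and at 34.3 and 43.2 CPM in Trim28 KO. Of the listed markers, Cox6a2 rose (1.33, adjusted p = 0.00550), the osteoblast factor Runx2 fell (-1.22) and Irf8 was not called. Siglech, named after its values were seen, had 0 to 3 reads per library. Lymphocyte and NK cell markers summed to 1.59 to 3.33 CPM, with Cd8a and Ncr1 at 0 in all 4 libraries. In that list Cd4, which macrophages can also express, rose from 4 and 5 reads to 16 and 15 reads (1.73, adjusted p = 0.0494). Neutrophil markers summed to 29.1 CPM in WT 2 and to 2.06 to 3.93 CPM in the other 3. Skeletal muscle markers were also highest in Trim28 KO 1 (1147 CPM, against 434 to 784 CPM). Taken singly, 7 of these 8 were higher in WT 2 than in WT 1 (median ratio 2.14). All 8 were higher in Trim28 KO 1 than in Trim28 KO 2 (median ratio 2.74), so they shared the pattern of most members. Tnnt3, the exception in WT (395 and 365 CPM), held a large part of the WT sums. Endothelial markers summed to 520 to 618 CPM in WT and 445 to 490 CPM in Trim28 KO. Osteoclast markers summed to 1105 and 908 CPM in WT and to 272 and 284 CPM in Trim28 KO, and red cell markers to 255 and 349 CPM in WT and to 75.7 and 82.1 CPM in Trim28 KO. Of 8 fibroblast and perichondrium markers 5 fell (62.5%, against 8.77% of all genes tested). The sums of the 8 were 70377 and 49028 CPM in WT and 24036 and 30846 CPM in Trim28 KO. The part of all these cells in the levels of the interferon-stimulated genes was not tested.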

How the data were processed

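RNA of rib cartilage cells was sequenced in 2 WT and 2 Trim28 KO libraries, with the genotype taken from the labels. The authors deposited raw counts per gene name, made with featureCounts 1.6.4 in paired-end mode on GENCODE release M23 of mm10, per the file headers. The recorded command sets nothing for strandedness, multi-mapping or overlapping features. Reads from near-identical copies and from overlapping genes are therefore largely missing, and antisense reads are not separated. The exon length per gene name was deposited beside the counts. No aligner is named in the sources used here.

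The table was kept as deposited. Genes were filtered with filterByExpr, scaled with TMM factors and tested as Trim28 KO against WT with edgeR 4.0.16 (limma 3.58.1, R 4.3.3), using the quasi-likelihood test with robust trended dispersions and genotype alone. Benjamini-Hochberg adjustment ran over all 16639 genes tested. Calls are adjusted p-values under 0.05. The standard error is the size of the log2 fold change divided by the square root of its F statistic. CPM values are TMM-scaled. Levels of different genes were compared per kilobase of exon. Totals were 18616896 to 20082123 counts, so 3 reads equal 0.151 to 0.159 CPM, a limit that covers counting error only. The steps were tested on counts simulated with the trended dispersions. There 53 of 97 changes of 2-fold (54.6%) and 97 of 99 changes of 4-fold (98%) were called. A gene that was not called may therefore still differ by 2-fold.

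Members, roles, pathway lists and marker lists were chosen with earlier results of these data known. The rule named all 39 members, Trim28, and from each pathway list the called genes and up to 4 more with the highest mean CPM. From each marker list it allowed up to 4 genes, and the text gives most of those lists by their sums only. Gene positions are those of GENCODE M21 (GRCm38, the assembly of mm10). Promoter windows came from RefSeq on GRCm38.p6. Alternatives were relative log expression (RLE) factors, library size alone, no filter, a filter of 5 CPM in 2 libraries, DESeq2 1.42.0, limma-voom, a replicate block and leaving out each library. A crossed block was added after the data were seen. The labels do not say that replicate numbers pair libraries.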

Additional observations from a re-analysis of the deposited data

How the results depend on the processing

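The count of members called higher, 9, was 18 with no filter on low counts and ran from 2 to 20 when 1 library was left out. It was between 6 and 12 with RLE factors, library size alone, a stricter filter (22 members tested), DESeq2 and limma-voom. In these settings 7.33% (DESeq2) to 10.1% (library size alone) of all genes tested were called higher, and with no filter 5.54%. No member was called lower, except Irf1 with the stricter filter (1 gene). With the replicate number as a block there were 7 higher and 1 lower, Irf1, and Oasl2 and Usp18 lost their calls. Over all genes tested, that block gave 8.88% higher and 8.68% lower. The deviations of same-numbered libraries correlated at -0.107. With the crossed pairing as a block 19 members were called higher, with 9.57% of all genes tested called higher. Over all genes, leaving out 1 library gave 702 to 1442 higher and 572 to 1406 lower calls, with 906 and 807 without Trim28 KO 2. The causes were not tested. Signs changed only in genes that were not called. With 1 library left out, the log2 fold change ran from -0.28 to 0.057 for Ifnar1, -0.38 to 0.21 for Ifnar2, -0.0061 to 0.77 for Ifih1, -0.065 to 0.34 for Mavs, -0.067 to 0.74 for Rsad2, -0.17 to 0.34 for Cmpk2 (-0.10 without WT 1), -0.071 to 0.90 for Mx2 and -0.29 to 0.17 for Parp14. Outside the members it ran from -0.13 to 0.17 for Jak1, -0.53 to 0.37 for Irf2bp1, -0.50 to 0.51 for Irf2bp2, -0.37 to 0.076 for Rnaseh2c and -0.18 to 0.14 for Helz2. Jak1 was at 0.049 and Helz2 at 0.032 with library size alone, and Jak1 at 0.019 with no filter. Where 1 library of a genotype was left, it was assumed to vary like those of the other genotype. Mx1, Oas1g and Oas3 had 3 to 45 reads per library, and no power was computed at that depth.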
